A study of Mus musculus with 16 samples.

Results

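Circadian clock and clock-output genes were followed in macrophages of 12 mice, through every probe named for Tef, Dbp, Nr1d1, Nr1d2, Per1, Per2, Cry1, Clock, Nfil3 or Bhlhe40. The set was built around Tef, which was chosen by its difference between the genotypes on these same arrays, and the other 9 genes were added as its relatives and as parts of the same clock. Every genotype difference of these genes is therefore given below as a description, without a p-value. The array carried 17 probes for the 10 genes among 24607 probes in all. Of these 17, 10 probes of 9 genes exceeded the noise limit on 3 or more animal arrays and entered the fit of 10534 probes, which stand for 7509 genes. The other 7 probes, among them the only one for Cry1, did not.

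The cells were thioglycollate-elicited peritoneal macrophages, collected 5 days after the injection, of which the cells still attached to the dish after 2 h were used. All mice were female, Apoe-/-, 15 weeks old and fed a Western diet for 10 weeks, from 5 weeks of age. By their labels, 6 were SR-uPA+/0 transgenic, which per the design text overexpress urokinase plasminogen activator (uPA) in macrophages, and 6 were nontransgenic. One RNA pool of each genotype was hybridised 2 times, giving 4 further arrays out of 16. Neither the time of day of collection nor the chip on which each array lay is given in the labels. Nothing in the labels spells out which promoter drives the transgene. Plau, the gene of uPA, read 1825 ± 1103 intensity units (SD, n = 6) in nontransgenic and 1660 ± 972 in transgenic animals. On the log2 scale transgenic minus nontransgenic was -0.10 (SE 0.42; adjusted p = 0.967 by limma), so this probe did not tell the labelled genotypes apart. Whether the Plau probe reads the transcript of the transgene is not known here, because probe sequences were not at hand. Genotypes below are those on the labels, and limma p-values set a genotype difference against the spread between the animals of a genotype.

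Before any result, 4 animals have to be named, because they stood apart on the first principal component of all tested probes. It held 18.9% of the variance. Nontransgenic 1, 2 and 3 and transgenic 1 scored from -24.79 to -10.75 on it, and the other 8 animals from -1.16 to 16.19. Their titles carry the 4 lowest animal numbers, 109, 111, 119 and 120, and those of the other 8 run from 122 to 150. The labels do not say what the numbers stand for, and their part in any reading was not tested. The 4 animals were singled out after the data were seen, and by the first component only. On the second (16.2% of the variance) they split, with nontransgenic 1, 2 and 3 at -10, -15.18 and -10.13 and transgenic 1 at 21.81. On the third (12.5%) transgenic 6 lay apart, at 33.11 against -10.01 to 0.2 in all other animals. Genotype differences of the set are given with and without the 4 animals, as are several of the correlations that differ most.

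The mammalian clock is a loop of transcription factors that runs in most cells, macrophages included. CLOCK and its partner BMAL1 (gene Arntl) bind E-box sequences and switch on the Per and Cry genes, whose proteins feed back to block them, as well as Nr1d1 and Nr1d2, which encode the repressors REV-ERB alpha and beta. REV-ERBs bind ROR elements and repress Arntl and Nfil3. Dbp and Tef encode PAR bZIP activators, which carry clock output through D-box sequences, and NFIL3 (E4BP4) represses at the same sequences. BHLHE40 (DEC1) is a repressor that competes at E-boxes.

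Promoter sequences of the set were searched for the motifs of this scheme, where a match describes letters in a window and nothing more. RefSeq promoters (build GRCm38.p6, 250 bases before to 50 after each start) were at hand for 8 of the 10 genes, 12 promoters in all, and both strands were searched for the E-box CACGTG, the D-box TTATGTAA or TTACGTAA, the ROR element TAGGTCA or TGGGTCA, and the cyclic AMP response element TGACGTCA. The motifs do not contain one another. Both Tef promoters held an E-box, as did 1 promoter of Per1 and that of Cry1, 4 of the 12, against 7.15% of all 32851 promoters. The 1 Nfil3 promoter held a ROR element in the reverse orientation, as do 6.45% of all promoters. No D-box (1.06% of all promoters) or cyclic AMP element (1.79%) was found in the 12. In the Tef promoters the E-box spans positions -127 to -122 and -138 to -133 from the start, and in Nfil3 the ROR element spans -12 to -6. These 3 promoters are printed because Tef carries the genotype difference and Nfil3 the widest spread of the set between animals. Capitals mark the motifs.
Tef, first start, chr15:81802423-81802722, plus strand: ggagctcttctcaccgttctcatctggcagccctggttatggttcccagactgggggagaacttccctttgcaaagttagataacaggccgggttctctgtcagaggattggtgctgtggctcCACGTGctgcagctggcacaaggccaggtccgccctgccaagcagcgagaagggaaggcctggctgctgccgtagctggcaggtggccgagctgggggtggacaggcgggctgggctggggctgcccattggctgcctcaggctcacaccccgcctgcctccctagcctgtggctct
Tef, second start, chr15:81811164-81811463, plus strand: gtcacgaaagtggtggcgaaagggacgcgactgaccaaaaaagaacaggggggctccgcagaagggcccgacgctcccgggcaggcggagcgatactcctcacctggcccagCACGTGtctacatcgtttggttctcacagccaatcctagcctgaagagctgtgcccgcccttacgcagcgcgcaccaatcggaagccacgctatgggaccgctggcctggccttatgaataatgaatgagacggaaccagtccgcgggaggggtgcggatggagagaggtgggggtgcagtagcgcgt
Nfil3, chr13:52980990-52981289, minus strand: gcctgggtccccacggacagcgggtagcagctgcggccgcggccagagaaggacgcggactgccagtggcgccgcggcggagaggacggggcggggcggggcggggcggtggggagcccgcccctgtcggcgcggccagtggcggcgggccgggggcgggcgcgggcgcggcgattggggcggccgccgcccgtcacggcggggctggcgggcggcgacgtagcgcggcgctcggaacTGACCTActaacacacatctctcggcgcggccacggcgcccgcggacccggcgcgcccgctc

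Tef was the only gene of the set whose animals did not overlap between genotypes. Its measured probe read 1338 to 2211 intensity units in the 6 nontransgenic animals (median 1731) and 540 to 836 in the 6 transgenic animals (median 620). The highest transgenic animal thus lay below the lowest nontransgenic one. On the normalized log2 scale the means were 10.84 ± 0.27 and 9.56 ± 0.24 (SD, n = 6), a difference of -1.28 (SE 0.14), or 2.44-fold. The pools repeated the separation, with 1859 and 1821 units for nontransgenic and 533 and 689 for transgenic RNA, although they hold the RNA of the same animals and add no replicate. Without the 4 animals that stood apart the difference was -1.15, and with the title number as a term it was -1.29. In bulk RNA, fewer cells expressing a gene and less of its RNA per cell cannot be told apart.

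Only 1 of the 3 Tef probes carried this reading. A second probe, annotated to the same transcript, stayed between 12.0 and 47.3 units on the animal arrays, and the remaining probe, annotated to another Tef transcript, between -33.1 and 24.8. The noise limit was 56.8 to 56.9 units, so neither was above it on any animal array. On the second probe the animal means ran the other way (21.2 in nontransgenic, 34.0 in transgenic), whereas the pools ran as the first probe did (47.7 and 44.7 against 9.73 and 11.2), so below the limit the orders of animals and pools disagreed.

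Among the 10 tested probes of the set, Tef alone passed the fit across all probes, as lower in transgenic animals (limma adjusted p under 0.05), and none passed as higher. Over all tested probes 0.627% passed as lower and 0.104% as higher. Non-overlap with transgenic lower was likewise seen for 1 of the 10, against 0.731% of all probes. Because Tef was picked from this contrast, nothing is read from these counts. The median difference over the 9 genes was -0.22, beside 0.01 over all tested probes.

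**Figure D1:**
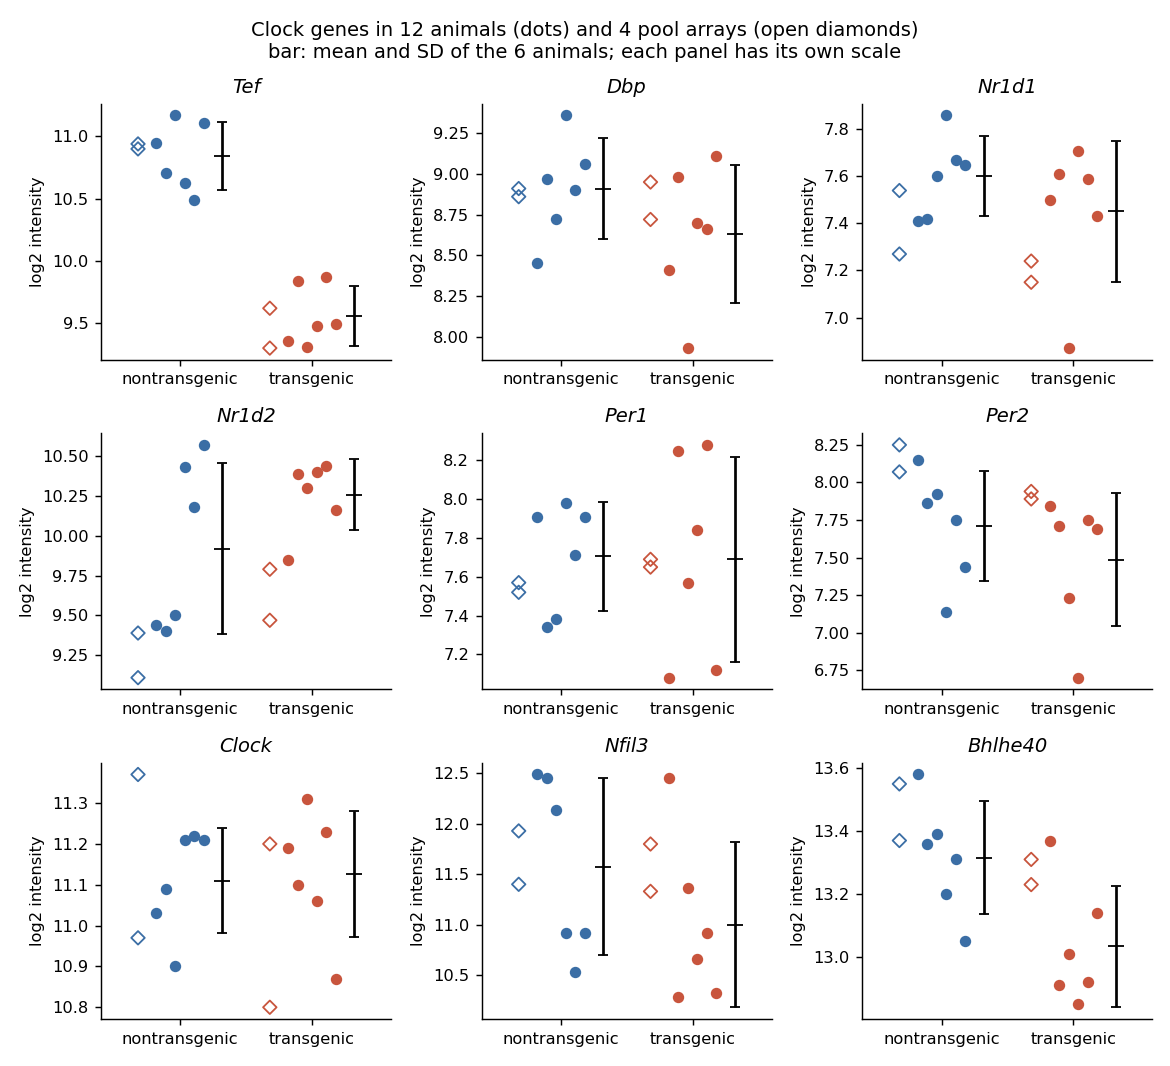
Normalized log2 intensity of the 9 measured genes in 6 nontransgenic (blue) and 6 transgenic (red) animals, with mean and SD as bars and the 2 pool readings of each genotype as open diamonds. Tef is the only panel without overlap between genotypes, at 10.84 against 9.56 on average, and Nfil3 and Nr1d2 show 3 nontransgenic animals apart from the other 3.

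Dbp, the closest relative of Tef in the set, did not show a matching separation. It ranged from 253 to 557 units in nontransgenic animals (median 393) and from 147 to 455 in transgenic animals (median 314), so that most of the ranges coincided. The log2 difference was -0.28 (SE 0.19), and -0.43 without the 4 animals that stood apart. Without transgenic 3 alone it was -0.14. By raw intensity 4 of 6 transgenic animals lay below the nontransgenic mean. Pool readings of 367 and 385 in nontransgenic and 324 and 396 in transgenic RNA overlapped as well. Hlf, another PAR bZIP gene, was below the noise limit.

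Nfil3, the repressor that opposes Tef and Dbp at D-boxes, varied more between animals than between genotypes. Nontransgenic animals ranged from 1380 to 5635 units (median 3123) and transgenic animals from 1148 to 5542 (median 1678). Its log2 difference was -0.58 (SE 0.39). Without the 4 animals that stood apart it was -0.08, and on leaving out single animals it ran from -0.87 (without transgenic 1) to -0.39 (without nontransgenic 1).

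Of the REV-ERB genes, Nr1d2 was above the noise limit on all 12 animal arrays and Nr1d1 lay near that limit. Both Nr1d2 pool readings of each genotype lay below all its animals, at 574 and 454 units (nontransgenic) and 612 and 791 (transgenic). The cause was not tested. Nr1d2 ranged from 579 to 1422 units in nontransgenic animals (median 844) and from 825 to 1290 in transgenic animals (median 1203), a log2 difference of 0.34 (SE 0.20). Without the same 4 animals it was -0.06. Nr1d1 gave -0.15 (SE 0.14) on its brighter probe, with 73.3 to 135 units in nontransgenic and 19.6 to 112 in transgenic animals. Its other probe gave -0.07 (SE 0.10), with 78.9 to 96.8 and 56.0 to 105 units. Both Nr1d1 probes were above the limit on 11 of 12 arrays, and the genotypes overlapped on both. Without the 4 animals the differences were -0.29 and -0.06, and without transgenic 3 alone the brighter probe had -0.03.

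The negative limb of the loop was dim. Per1, which also answers quickly to glucocorticoids and other outside signals, read 65.1 to 155 units in nontransgenic and 38.2 to 213 in transgenic animals, a log2 difference of -0.02 (SE 0.21). Per2 read 44.0 to 187 and 6.86 to 132 units, a difference of -0.22 (SE 0.20). Per1 was above the noise limit on 10 of 12 arrays and Per2 on 9, and their folds are understated at this level. Without the 4 animals the differences were -0.06 for Per1 and -0.03 for Per2. Without transgenic 4 alone Per2 had -0.07, and on leaving out single animals Per1 ran from -0.14 to 0.10. The second Per2 probe was above the limit on none. Cry1 had readings below 0 on all 12 animal arrays, from -72.5 to -0.05 units, so the array gave no level for it.

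Clock and Bhlhe40 were the steadiest genes of the set among those well above noise. Clock ranged from 1809 to 2279 units in nontransgenic and from 1783 to 2414 in transgenic animals, a log2 difference of 0.02 (SE 0.11). Its other 2 probes were above the noise limit on no animal array. Bhlhe40 ranged from 8378 to 11900 units in nontransgenic animals (median 10231) and from 7241 to 10506 in transgenic animals (median 7967). Its log2 difference was -0.28 (SE 0.12), with 5 of 6 transgenic animals below the nontransgenic mean. Transgenic 1, at 10506 units, was the exception. Without the 4 animals the differences were -0.10 for Clock and -0.22 for Bhlhe40.

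The rest of the clock was examined through lists of other core genes, modifiers and outputs, drawn up with earlier results of these data known. Of 12 other core clock genes, 3 were measured and none passed the test in either direction. Arntl, the gene of BMAL1, had 0.03 as its log2 difference (SE 0.10; adjusted p = 0.958, limma). Rora, which activates at ROR elements, had -0.02 (SE 0.10; adjusted p = 0.979), and Cipc, an inhibitor of CLOCK, -0.19 (SE 0.19; adjusted p = 0.841). Arntl2, Npas2, Per3, Cry2, Hlf, Rorb and Bhlhe41 were below the noise limit on more than 9 of the 12 arrays.

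Of 18 modifiers of the clock proteins, such as kinases and ubiquitin ligases, 11 were measured and none passed. The smallest p-values belonged to Tipin, the partner of Timeless, with -0.34 (SE 0.12; limma adjusted p = 0.347), and to the ubiquitin ligase subunit gene Btrc, with 0.22 (SE 0.12; adjusted p = 0.648). Tipin was above the noise limit on 5 arrays and Btrc on 6. Of 10 output genes 5 were measured and none passed. Tspan4, which cycles in many mouse organs, had -0.31 (SE 0.14; adjusted p = 0.541), with 6 of 6 transgenic animals below the nontransgenic mean. Klf9, a transcription factor gene, had -0.34 (SE 0.17; adjusted p = 0.600). List medians were -0.02 for core genes, 0.00 for modifiers and -0.07 for outputs. At an unadjusted p under 0.05, Tipin and Tspan4 were the only genes among the 3, 11 and 5 measured in these lists, beside 8.53% of all tested probes.

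**Figure D2:**
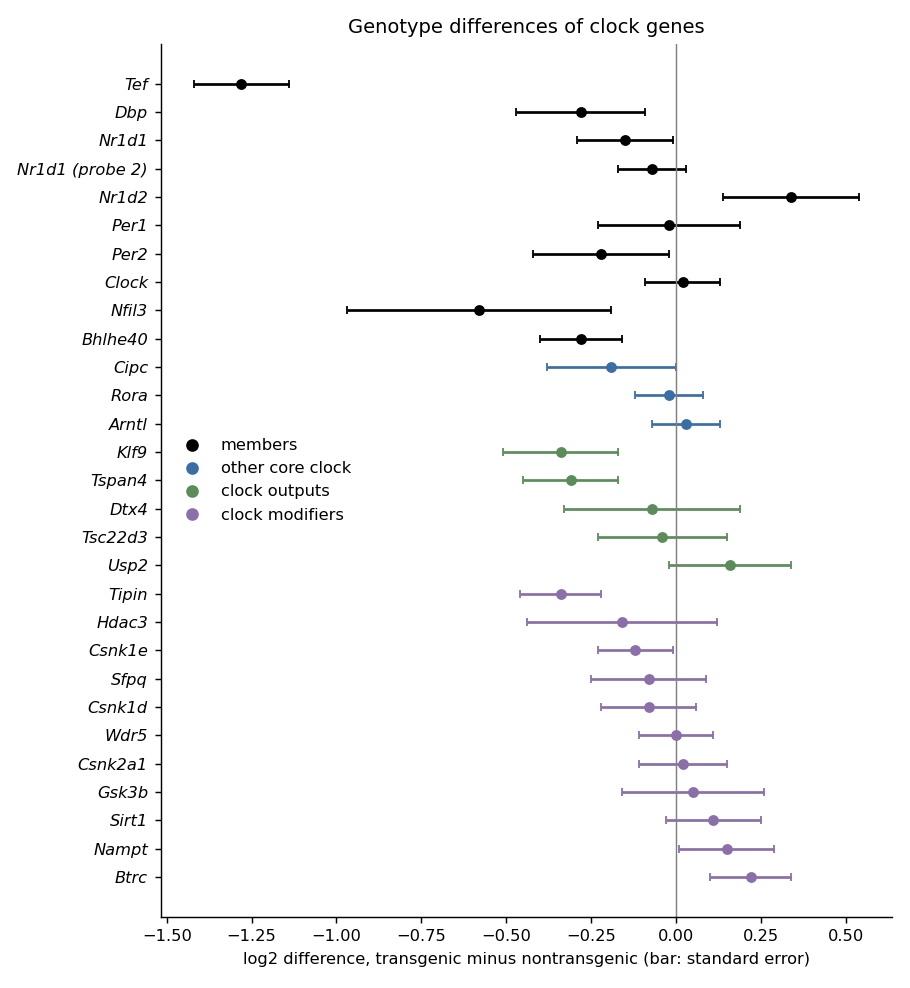
Log2 difference between transgenic and nontransgenic animals, with its standard error, for the 10 measured probes of the set and for other clock genes. Tef at -1.28 lies far to the left, and every other gene shown lies between -0.58 and 0.34.

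Genes that act downstream of the set were read the same way. Of 7 genes known from liver, kidney or brain as PAR bZIP targets, 2 were measured. Alas1, the first enzyme of heme synthesis, had -0.02 (SE 0.13; limma adjusted p = 0.980), and Cyp2a5, a cytochrome P450 that was near the noise limit, 0.02 (SE 0.12; adjusted p = 0.975). Of 8 genes repressed by REV-ERBs, 6 were measured, 1 was higher in transgenic animals and the other 5 did not pass, beside 0.104% of all tested probes passing as higher. The 1 was Cx3cr1, the fractalkine receptor, at 0.78 (SE 0.16; adjusted p = 0.0263), with 6 of 6 transgenic animals above the nontransgenic mean. Its call was already known when this list was drawn up, and it was lost without nontransgenic 1, nontransgenic 6, transgenic 1, transgenic 4 or transgenic 5 (adjusted p from 0.0531 to 0.0715). Without the 4 animals that stood apart its adjusted p was 0.212 and the difference 0.84. The level was low, at 73.0 ± 35.6 units in nontransgenic and 192 ± 52.8 in transgenic animals. The list median was 0.03.

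Of 9 glucocorticoid-responsive genes, among them Per1, 8 were measured and none passed. Over all tested probes 0.627% passed as lower and 0.104% as higher. At an unadjusted limma p under 0.05 stood 2 of the 8, Sgk1 and Fkbp5, beside 8.53% of all tested probes. These 2 pointed in opposite directions. Sgk1, a kinase gene, averaged 24973 units in nontransgenic and 16913 in transgenic animals, which is -0.60 in log2 units (SE 0.19; adjusted p = 0.273, limma), with 6 of 6 transgenic animals below the nontransgenic mean. Fkbp5, a chaperone of the glucocorticoid receptor, averaged 158 and 318 units, a difference of 0.66 (SE 0.22; adjusted p = 0.326). With the number in each animal's title as a term, Sgk1 passed at -0.63 (adjusted p = 0.0356).

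Spread between animals of a genotype differed widely within the set. Nfil3 had a within-genotype SD of 0.85 on the log2 scale, larger than that of 99.7% of all tested probes, whose median was 0.24. Per1 (0.42), Nr1d2 (0.41), Per2 (0.40) and Dbp (0.37) exceeded between 86.4% and 91.9% of probes. Tef, at 0.26, was near the middle (56.5%), Bhlhe40 had 0.19 (24.7%), and Clock, at 0.14, had less spread than most (6.47%). Tef thus separated the genotypes with an ordinary spread between animals.

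The spread of Nfil3 and Nr1d2 followed the 4 animals that stood apart. Nfil3 read 5635, 5585 and 4404 units in nontransgenic 1, 2 and 3 and 5542 in transgenic 1, and 1148 to 2545 in the other 8. Nr1d2 read 598, 579, 627 and 825 units in the same 4 animals and 1048 to 1422 in the other 8. The animals high for Nfil3 were thus those low for Nr1d2, with no overlap for either gene. Bhlhe40 read 11900, 10387, 10808 and 10506 units in these 4 and 7241 to 10076 in the rest. Tef did not follow them, with 1875, 1586 and 2211 units in the 3 nontransgenic animals, against 1338 to 2101 in the other 3, and 561 in transgenic 1, against 540 to 836 in the other 5.

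**Figure D3:**
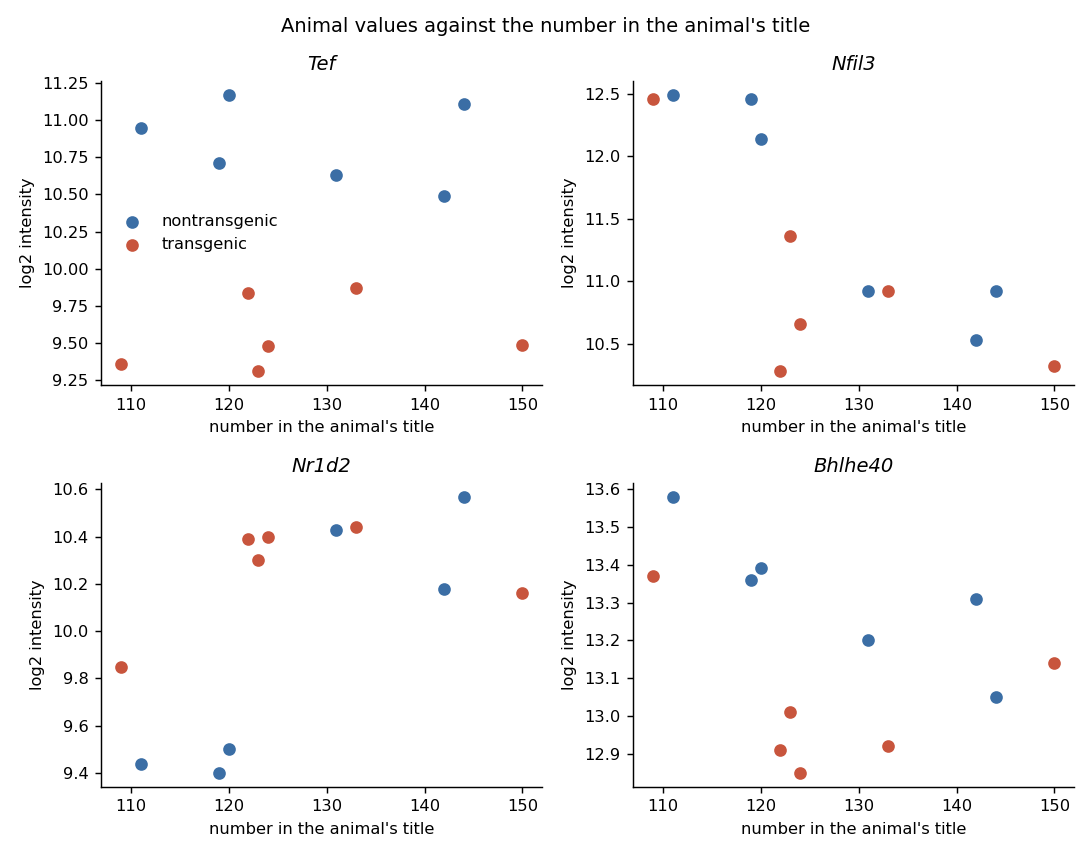
Normalized log2 intensity of Tef, Nfil3, Nr1d2 and Bhlhe40 against the number in each animal's title, nontransgenic in blue and transgenic in red. The 4 animals numbered 109 to 120 are high for Nfil3 and low for Nr1d2, whereas Tef is lower in all transgenic than in all nontransgenic animals, whatever their number.

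Whether Tef moves with the clock from animal to animal was asked after the genotype means were removed. The family held 45 pairs among the 9 measured genes and Arntl, over 12 animals, with exact two-sided permutation of animals within genotype (518400 arrangements) and Benjamini-Hochberg adjustment. None of the 9 pairs with Tef passed, and none had an unadjusted p under 0.05. Pearson's r with Tef ran from -0.32 for Clock to 0.44 for Per1. For Tef and Dbp r was 0.12 (exact p = 0.723, adjusted p = 0.846), Spearman's rho was 0.16 (exact p = 0.628, adjusted p = 0.831), and r was 0.24 without the 2 animals farthest from the Tef median. For Tef and Per1 r was 0.44 (exact p = 0.159, adjusted p = 0.435), rho was 0.34 (exact p = 0.290, adjusted p = 0.568), and r was 0.54 without the 2 farthest animals. In the 8 animals without the 4 that stood apart, r with Tef was 0.75 for Nr1d2 (exact p = 0.0778, adjusted p = 0.410) and 0.63 for Per1 (exact p = 0.0819, adjusted p = 0.410), against 0.01 for Nr1d2 over 12. For Tef and Nr1d2 rho was -0.13 over 12 animals (exact p = 0.734) and 0.76 over 8 (exact p = 0.0611), and r without the 2 farthest was 0.15 and 0.46. For Tef and Bhlhe40 r was -0.25 over 12 (exact p = 0.441, adjusted p = 0.736) and -0.64 over 8 (exact p = 0.143, adjusted p = 0.585). The genotypes differed in sign for several of these pairs, with n = 6 in each. For Tef and Dbp r was -0.40 in nontransgenic (exact p = 0.432) and 0.56 in transgenic animals (exact p = 0.257). For Tef and Per1 it was -0.11 (exact p = 0.783) and 0.82 (exact p = 0.0639), and for Tef and Nr1d2 -0.20 (exact p = 0.711) and 0.60 (exact p = 0.175). The difference between the genotypes' correlations was not tested. With 12 animals a moderate relation can miss the threshold.

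Of the 45 pairs, 1 passed. Nr1d2 and Bhlhe40 moved against each other, with r = -0.82 (exact p = 6.56e-05, adjusted p = 0.00295) and rho = -0.76 (exact p = 0.00105, adjusted p = 0.0470). Without the 2 animals farthest from the Nr1d2 median r was again -0.82. Within nontransgenic animals r was -0.86 (exact p = 0.00694, n = 6), and within transgenic animals it was -0.98 (exact p = 0.00556, n = 6). The 4 animals that stood apart were all at the low end of Nr1d2, so the pooled r holds their split as well. In the other 8 alone r was -0.93 (exact p = 0.00556, adjusted p = 0.219) and rho -0.90 (exact p = 0.0181). No pair passed in the 8 animals, where 0.219 was the lowest adjusted p by exact permutation. Their 720 arrangements allow no exact p below 0.00139, so 1 pair alone could not pass after adjustment over 45 pairs. The lack of a call there is therefore not read as a result. Without the 2 farthest of the 8, r of Nr1d2 and Bhlhe40 was -0.86. Both genes also moved with array-wide measures over the 12 genotype-centred animals, given here as descriptions. With the first principal component, which includes both probes, r was 0.87 for Nr1d2 and -0.89 for Bhlhe40. With the macrophage marker mean it was 0.64 and -0.78, and with the neutrophil marker mean -0.40 and 0.58, and their part in the relation was not tested. Without transgenic 1 and transgenic 6 the pair had r = -0.84 and did not pass (exact permutation, adjusted p = 0.102).

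Nfil3 split between the 4 animals and the other 8, as Nr1d2 and Bhlhe40 did, so its pairs below are given over 12 and over 8. Over 12 animals r with Nr1d2 was -0.81 (exact p = 0.00782, adjusted p = 0.152). With Bhlhe40 r was 0.72 (exact p = 0.0135, adjusted p = 0.152), with Dbp -0.64 (exact p = 0.0331, adjusted p = 0.186) and with Clock -0.07 (exact p = 0.841, adjusted p = 0.946). In the 8 animals r with Bhlhe40 was -0.24 (exact p = 0.631, adjusted p = 0.946). There r with Nr1d2 was 0.35 (exact p = 0.342, adjusted p = 0.786), with rho 0.26 (exact p = 0.496) and r = -0.42 without the 2 farthest animals. The 4 animals were set apart by the first principal component, with which r was -0.92 for Nfil3 and 0.87 for Nr1d2 (12 genotype-centred animals). Leaving them out narrows the range of both genes, so the change in r from 12 to 8 animals is not read as a result. For Nfil3 and Dbp r was -0.76 in the 8 animals (exact p = 0.0639, adjusted p = 0.410), with rho -0.62 (exact p = 0.144), and -0.10 without the 2 farthest. Of the remaining pairs, Dbp and Nr1d1 had r = 0.73 over 12 animals (exact p = 0.0180, adjusted p = 0.157), rho 0.51 (exact p = 0.112, adjusted p = 0.416) and 0.24 without the 2 farthest, so the pooled r leans on those 2. Within genotypes r was 0.76 in nontransgenic (exact p = 0.0750) and 0.73 in transgenic animals (exact p = 0.124). Transgenic 3 was lowest for both genes, at 147 and 19.6 units, the latter below the noise limit. Dbp and Clock had r = -0.27 over 12 animals (exact p = 0.441, adjusted p = 0.736) and -0.79 over the 8 (exact p = 0.0625, adjusted p = 0.410), with rho -0.28 (exact p = 0.413) and -0.86 (exact p = 0.00694). The latter r was -0.26 without the 2 farthest of the 8 animals. Per2 and Arntl had r = -0.44 over 12 (exact p = 0.159, adjusted p = 0.435) and -0.76 over 8 (exact p = 0.0278, adjusted p = 0.410), with rho -0.33 (exact p = 0.316) and -0.88 (exact p = 0.0139), and r of -0.05 and -0.73 without the 2 farthest. For Clock and Nfil3 r was 0.78 over the 8 (exact p = 0.0750, adjusted p = 0.410), rho was 0.74 (exact p = 0.149), and r was 0.49 without the 2 farthest. In all, 9 of the 45 pairs had an unadjusted exact p under 0.05 over 12 animals, and 8 of these 9 did not pass. Among them Nr1d2 had r = 0.58 with Per1 (exact p = 0.0121) and -0.63 with Per2 (exact p = 0.0209). Bhlhe40 had 0.68 with Per2 (exact p = 0.0265) and -0.63 with Per1 (exact p = 0.0380). The adjusted p of these pairs ran from 0.152 to 0.190. Over the 8 animals their r was 0.70, -0.32, 0.43 and -0.71, in the same order. Without nontransgenic 1, the pairs Nr1d2 with Per1 (r = 0.72, adjusted p = 0.00365) and Per1 with Bhlhe40 (r = -0.83, adjusted p = 0.0483) passed as well by the same exact permutation test.

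**Figure D4:**
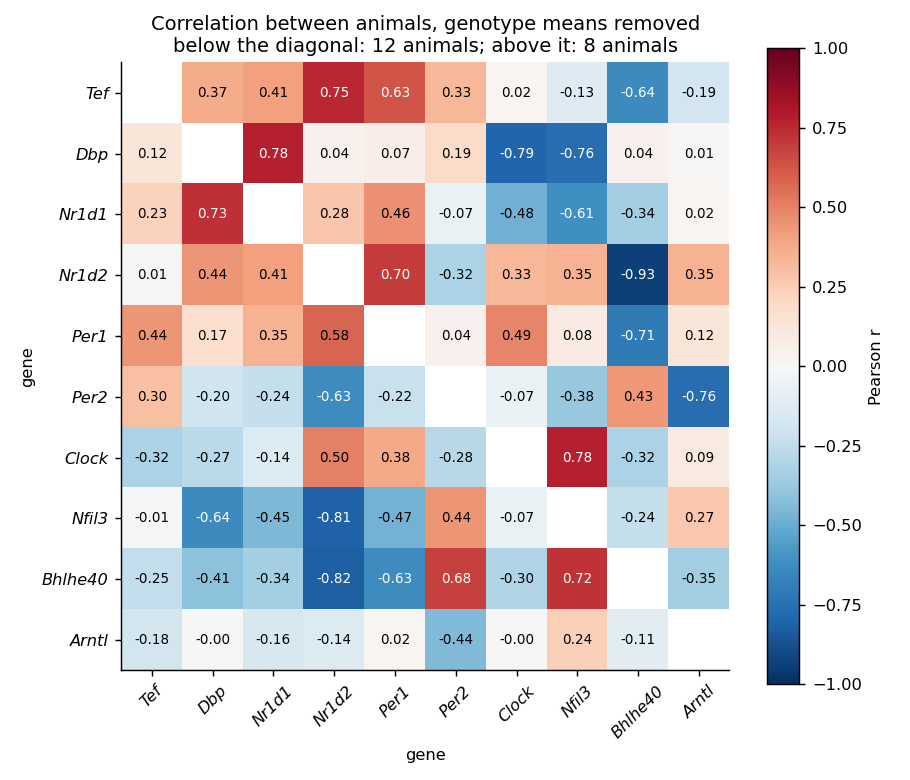
Pearson r of genotype-centred log2 values for each pair of genes, over all 12 animals below the diagonal and over the 8 animals without nontransgenic 1, 2 and 3 and transgenic 1 above it. The Tef column is pale over 12 animals, with r between -0.32 and 0.44, and Nr1d2 with Bhlhe40 is dark blue on both sides (-0.82 and -0.93). Values with Nfil3, Nr1d2 or Bhlhe40 below the diagonal join animals that lie apart.

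**Figure D5:**
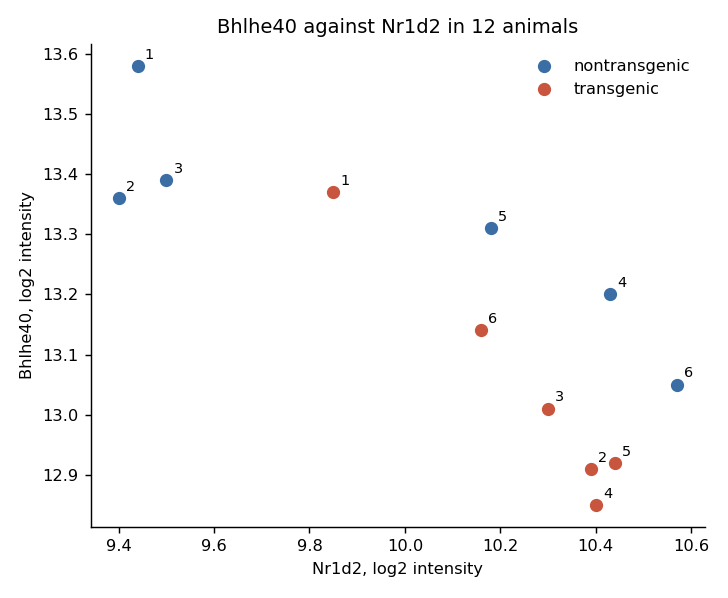
Normalized log2 intensity of Bhlhe40 against that of Nr1d2 in 6 nontransgenic (blue) and 6 transgenic (red) animals, each labelled with its replicate number. Within each genotype Bhlhe40 is lower where Nr1d2 is higher, with r = -0.86 and r = -0.98.

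Markers of other cell types differed between the same genotypes as Tef. Of 15 neutrophil markers 9 were measured, and their summed intensity ran from 5058 to 18535 units in nontransgenic and from 12740 to 45934 in transgenic animals, with 4 of the 9 higher by the limma fit. The 4 higher were S100a8, S100a9, Retnlg and Pglyrp1. Lcn2 (1.17), Csf3r (0.60), Mmp9 (0.50), Ltf (0.25) and Camp (0.13) did not pass. S100a8, at 4021 units on average in nontransgenic and 14196 in transgenic animals, weighed most in the sums. Mmp8, Cxcr2, Ngp, Elane and Mpo among the 15 were below the noise limit. Of 14 fibroblast and mesothelial markers 11 were measured, with sums of 7382 to 14714 and 1282 to 6269 units and 4 of the 11 lower, and Col1a2, Lum and Krt19 were below the limit. The 4 lower were Col1a1, Col3a1, Col6a1 and Serping1, whereas Dcn, at 5343 and 2005 units on average, weighed most in the sums. The others did not pass: Dcn (-1.58), Pdgfra (-1.19), Wt1 (-0.66), Krt8 (-0.26), Upk3b (-0.07), Krt18 (-0.03) and Msln (0.10). Over all tested probes 0.104% passed as higher and 0.627% as lower. Of 12 macrophage markers 9 were measured, with sums of 104218 to 136728 and 104087 to 122316 units and none past the test; Adgre1 and Lyz2 were above noise on all 12 arrays, and Msr1 was below the limit. Of 6 B cell markers 2, of 7 T cell markers 1 and of 6 eosinophil and mast cell markers 2 were measured, with sums of at most 635, 212 and 615 units. With the neutrophil and fibroblast marker means as terms in the fit, the Tef difference was -0.97. Dbp then had 0.74 and Nfil3 -2.17, far from their values of -0.28 and -0.58. Both marker means follow the genotype, which makes these values imprecise, and the part of other cells in the Tef difference was not tested further.

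The 5 probes most like Tef between animals are given as a description. None was a clock gene of the set or lists, but these are few among the probes searched. Over the genotype-centred values of 12 animals, the 5 highest correlations among 8900 named probes were those of Oscp1 (r = 0.88), Sdcbp (0.85), Bhlhb9 (0.83), Apba3 (0.81) and Sephs2 (0.81). Sdcbp encodes the adaptor protein syntenin, and Sephs2 an enzyme of selenium metabolism. They were picked as the highest of many and carry no test. Their own log2 differences between genotypes ran from -0.13 to 0.02. Over all tested probes only 0.627% passed as lower, so nothing is read from the lack of a Tef-like difference among the 5.

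Differences of the genes next to Tef on chromosome 15 are given as a description. Over all tested probes 0.627% passed as lower and 0.104% as higher, so no call is the usual outcome for 11 genes. The part of the region in the Tef difference was not tested. Of the 10 protein-coding genes on each side (order from RefSeq, GRCm38.p6; a comparison chosen after the Tef values were seen), 11 of 20 were measured and none passed the limma fit. Their log2 differences ran from -0.24 for Rangap1, which encodes an activator of the Ran GTPase, to 0.18 for St13, which encodes a co-chaperone (lowest adjusted p = 0.700), with a median of 0.02. Tob2, the nearest gene on 1 side, had 0.14 (SE 0.11; adjusted p = 0.801).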

How the data were processed

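RNA of 12 animals and 2 pools was measured on 16 Illumina Mouse Ref-8 arrays; RNA integrity numbers were 8.9 to 9.7, per the labels' protocols. The values are the intensities deposited by the authors, linear and not log-transformed. BeadStudio is named in the submitters' processing notes, without a version. Values reach down to -121.5, so a background had been subtracted, and the arrays' distributions were nearly equal. No source used here states how either was done. Another deposited table without normalization has 32 columns whose running numbers match no label, and it was not used. The members and lists were chosen with earlier results of these data known.

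After 4 control probes were left out, 24607 probes remained, of which 19851 had 1 gene symbol and 4756 none here, per the platform annotation with symbols updated by gene ID. The noise limit was 1.64 times the root mean square of each array's values below 0. A probe was tested if above it on 3 of 12 animal arrays (10534 probes, 7509 genes), and the brightest tested probe stood for a gene. limma 3.58.1 in R 4.3.3 applied normexp (saddle, offset 16; in effect 96.95 units were added, by the median), quantile normalization over the 12 animals and log2, then lmFit and eBayes. Tests were two-sided, p-values were adjusted by Benjamini-Hochberg across the tested probes, and the threshold was 0.05. The offset makes folds of dim genes too small. The number of arrays, 6 independent RNA samples per genotype by the design text, limits the precision. Pool arrays repeat this RNA and stayed out of the tests. Correlations used exact permutation within genotype. Both procedures were tested on simulated data. Named genes were all probes of the set, list members past the threshold or else the 2 with the smallest p, the 5 probes most like Tef, and Plau. Rora and the genes next to Tef were named outside this rule, after the values were seen. Alternatives covered background, normalization, filter, variance model, array weights and left-out animals.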

Additional observations from a re-analysis of the deposited data

Results flagged for a closer look

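In 1 of 20 groups examined (each of 10 probes in each genotype), 1 animal lay far from the others, where about 1 in 20 would by chance. On the brighter Nr1d1 probe transgenic 3 read 19.6 units, below the noise limit, and its gap to the next animal was 0.673 of the group's whole log2 range, above Dixon's critical value for 6 animals. On the other Nr1d1 probe the same animal read 92.0 units, within the range of its group. Without transgenic 3 the genotype difference of Nr1d1 went from -0.15 to -0.03.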

How the results depend on the processing

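Under 25 other settings 618 values were recomputed, and no called value changed sign. Among values that passed no test, 33 changed sign: with marker means as terms Dbp (0.74), Nr1d1 (0.22), Per1 (0.63) and Clock (-0.07), without the 4 animals that stood apart Nr1d2 (-0.06), Clock (-0.10) and r of Tef with Clock (0.02), with the second Nr1d1 probe r of Tef with Nr1d1 (-0.25), and otherwise Per1, Clock and r of Tef with Dbp, Nr1d1, Nr1d2 or Nfil3 on leaving out 1 or 2 animals or weighting arrays. The Tef difference, whose choice fixed its direction, ran from -1.36 to -1.15 over the refits and was -0.97 with marker means as terms. Counts over the array, 66 lower and 11 higher, moved more. Without a filter on dim probes 35 were lower and 7 higher, and with the filter set at all 12 arrays 28 and 5, since the number of probes tested changes. Leaving out 1 animal gave 35 (without nontransgenic 2) to 78 lower and 6 (without nontransgenic 6, transgenic 4 or transgenic 5) to 15 higher. Without transgenic 4 there were 39 lower, and without nontransgenic 2, nontransgenic 3 or transgenic 3 there were 7 higher. Without transgenic 1 and 6 there were 7 higher, and without nontransgenic 1, 2 and 3 and transgenic 1, chosen after the values were seen, 6 higher and 19 lower, from fewer samples. The REV-ERB list had 1 call as reported and 0 under both filter alternatives and without either set of animals, and 0 to 1 on leaving out 1 animal. With the filter at all 12 arrays Cx3cr1, above noise on 10, was not tested. Without a filter it was tested and had an adjusted p of 0.0919 (limma). The glucocorticoid list went from 0 to 1 with the title number as a term, also chosen after the values were seen. Of the 45 pairs, 1 passed as reported, 1 to 3 without 1 animal (3 without nontransgenic 1), and 0 without either set of animals, where Nr1d2 and Bhlhe40 had r of -0.84 and -0.93. Without nontransgenic 1, 2 and 3 and transgenic 1, too few arrangements are left for 1 pair alone to pass. On leaving out 1 animal the r of Nr1d2 and Bhlhe40 ran from -0.87 to -0.75. No paired analysis was possible because animal numbers were given in accession order and pair nothing, and the numbered pool arrays repeat 1 RNA per genotype. Readings near the noise limit (Nr1d1, Per1, Per2) limit what can be said of those genes.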

Other observations

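Pool readings of several clock genes lay outside the range of the individual animals. Nr1d2 read 574 and 454 units in the nontransgenic pool, below all 6 animals (579 to 1422, mean 928), and 612 and 791 in the transgenic pool, below all 6 as well (825 to 1290, mean 1137). Per2 read 149 and 140 units in the transgenic pool, above all 6 animals (highest 132), and in the nontransgenic pool 1 of 2 readings, 208, was above all 6 (highest 187). The second Nr1d1 probe read 41.4 and 48.2 units in the transgenic pool, below all 6 animals (lowest 56.0). Both repeats of a pool deviated the same way for these genes, except the second nontransgenic Per2 reading of 173, which lay within the animals' range. Single readings also fell outside for Tef (533, transgenic, lowest animal 540), Bhlhe40 (11944, nontransgenic, highest 11900), Clock (2542, nontransgenic, highest 2279, and 1704, transgenic, lowest 1783) and the first Nr1d1 probe (57.3, nontransgenic, lowest 73.3). None did for Dbp, Per1 or Nfil3. The cause was not tested.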
